A study of Mus musculus with 18 samples.

Results

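The genes described here encode the subunits of the mitochondrial respiratory chain and of the ATP synthase, together with the assembly factors of complex I. They were taken by symbol from the array annotation: every gene whose symbol starts with Nduf, Uqcr or Atp5, or with Cox followed by a digit from 4 to 8, plus Sdha, Sdhb, Sdhc and Sdhd. Of the 17711 genes with a named probe, 85 had such a symbol, and 78 of these were among the 10806 genes tested. The 78 were 5 core subunits, 27 accessory subunits and 7 assembly factors of complex I, 3 subunits of complex II, 6 of complex III, 14 of complex IV and 16 of complex V. The other 7 (Ndufs1, Sdha, Uqcrfs1, Ndufaf6, Cox7b2, Cox8b and Cox8c) were detected on 0 of the 18 arrays, so no level is given for them. Of the 78 genes, 73 were detected on all 18 arrays.

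Complexes I and II hand electrons from NADH and from succinate to ubiquinone, complex III passes them to cytochrome c, and complex IV passes them to oxygen. Complexes I, III and IV pump protons while doing so, and complex V, the ATP synthase, uses that proton gradient to make ATP. Most of their subunits are encoded in the nucleus, as all genes described here are, and a few in mitochondrial DNA. In macrophages the balance between respiration and glycolysis is known to shift with activation: cells stimulated through interleukin 4 respire more, and cells stimulated with bacterial products lean on glycolysis.

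The cells came from MacGreen mice (C57Bl/6J, 10 to 16 weeks old), whose myeloid cells carry EGFP under the Csf1r promoter, and all were sorted for high EGFP. Capsule cells were released with collagenase from the tissue grown around sterile objects that had lain in the peritoneal cavity for 7, 14, 21 or 28 days. Lavage cells were washed from the cavity 2, 4, 7 or 14 days after such implantation, or from mice without an implant (day 0). Each of the 9 groups had 2 arrays. Their RNA was from pooled cells, and separate animals behind the arrays of a group are not stated, so p-values measure only the spread between arrays, which may be technical. EGFP marks any cell with an active Csf1r promoter, not 1 cell type, and only capsule cells were digested, so the place of the cells and the digestion cannot be told apart. Values are log2 intensities after normalisation across arrays, tests are limma's with Benjamini-Hochberg adjustment over all 10806 genes of a comparison, and a gene was called at an adjusted p under 0.05.

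Mean intensity was 584.9 to 1053 on the 12 arrays of slides 1 and 2 (all lavage groups and capsule day 7) and 455.4 to 528.1 on the 6 arrays of slides 3 (capsule day 14) and 4 (capsule days 21 and 28). The arrays of slides 3 and 4 had more detected probes, 18311 to 19345 against 16442 to 17559. For the later capsule groups slide and group cannot be told apart, and the counts of calls that rest on them are given under a second scaling too. The summed level of the 8 macrophage markers measured was 134100 to 161800 in capsule groups and 130100 to 172600 in lavage groups. Csf1r itself was not analysed here. In bulk RNA of this kind, fewer cells that carry a transcript and less of it per cell cannot be told apart.

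In lavage cells the subunit genes were higher at days 4, 7 and 14 after implantation than at day 0. With quantile normalisation the shift was largest at day 7. With median scaling, the second scaling, the members' median was 0.63 at day 7 and 0.58 at day 14. Relative to all genes it was then 0.56 and 0.65, so the day of the largest shift depends on the scaling. Against day 0, 10 of the 78 rose at day 2, 28 at day 4, 47 at day 7 and 35 at day 14. The share of all tested genes that rose was 13.3% at day 2, 15.4% at day 4, 15.1% at day 7 and 10.3% at day 14, so at day 2 the members stood at the background. At days 2, 4 and 7 limma called 0 members lower, and at day 14 it called 1, Ndufa4, while 11.7%, 12.6%, 13.5% and 9.50% of all genes fell on these days. At an unadjusted p under 0.05, 1, 1, 2 and 1 members were lower. Other kept probes, 30 in all, existed for 24 members and often did not repeat a call. Where the probe used was called at day 7, 12 other probes were called in the same direction. A further 10 had that direction without a call, and 2 had the opposite sign. The same counts at day 4 were 3, 8 and 2. At day 14 they were 5, 11 and 2, and at day 2 they were 0, 5 and 0.

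The median difference of the 78 from day 0 was 0.10 at day 2, 0.34 at day 4, 0.51 at day 7 and 0.44 at day 14, beside 0.04, 0.04, 0.01 and 0.03 over all genes. Within slide 1 alone, the median was 0.13, 0.25, 0.49 and 0.40, and within slide 2 it was 0.17, 0.39, 0.56 and 0.48. The difference was above 0 on both slides for 36, 59, 69 and 67 of the 78. The moderated F test over the 5 lavage groups called 52 of the 78 (66.7%), beside 46.3% of all genes. By that test all 5 core subunits of complex I and all 3 genes of complex II changed, with 13 of 16 in complex V, 5 of 6 in complex III, 9 of 14 in complex IV, 13 of 27 accessory subunits and 4 of 7 assembly factors of complex I.

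These counts share the 2 arrays of day 0 and depend on them. Without lavage day 0 replicate 1 the members called were 3 at day 2, 13 at day 4 and 20 at day 14, and without replicate 2 they were 4 at day 2, 8 at day 4, 26 at day 7 and 15 at day 14. Without replicate 1 of the later day they were 3 at day 2, 9 at day 4 and 28 at day 7, and without its replicate 2 they were 13 at day 4 and 18 at day 14. On the 12 arrays of slides 1 and 2 alone, the count at day 2 was 5 with the replicate block and 6 without it. The direction of the median was the same in each of these fits.

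**Figure D1:**
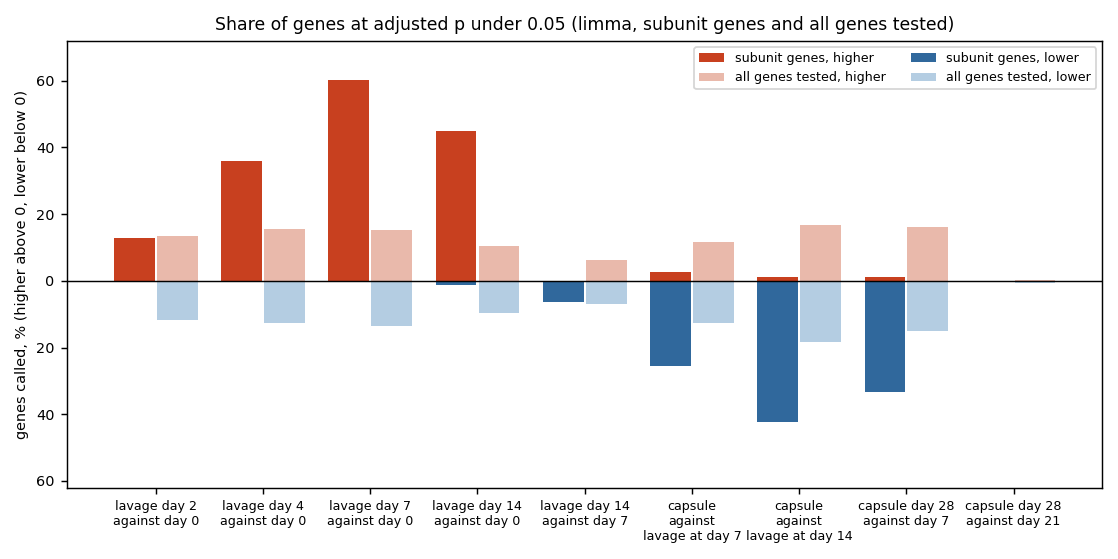
Share of genes called higher (above 0) and lower (below 0) at an adjusted p under 0.05 in 9 comparisons, in percent, for the 78 subunit genes (dark bars) and all 10806 genes tested (pale bars), from limma on 2 arrays per group. At lavage day 7 against day 0, 60.3% of the subunit genes were higher, beside 15.1% of all genes, and 0 were lower; the blue bars of capsule against lavage at day 14 and of capsule day 28 against day 7 are with quantile normalisation, and with median scaling most calls there were higher.

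At day 4 the ATP synthase had 12 of its 16 genes higher and a median difference of 0.49, beside 5 of 14 in complex IV, 2 of 6 in complex III, 1 of 3 in complex II, 5 of 27 accessory subunits, 3 of 7 assembly factors and 0 of 5 core subunits of complex I. The day 4 differences of the core subunits had a median of 0.24 and ran from -0.23 (Ndufv1) to 0.34 (Ndufs8, adjusted p = 0.0635). At day 7 the core of complex I had 4 of 5 genes higher and complex II 3 of 3. Complex V had 13 of 16 genes higher, complex IV 11 of 14, complex III 3 of 6, the accessory subunits of complex I 12 of 27 and its assembly factors 1 of 7. Median differences at day 7 were 0.79 in complex II, 0.65 in complex V, 0.61 in complex IV, 0.57 in the complex I core, 0.47 in complex III, 0.42 in the accessory subunits and 0.12 in the assembly factors. Differences between complexes, or between days in a complex, were not tested.

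**Figure D2:**
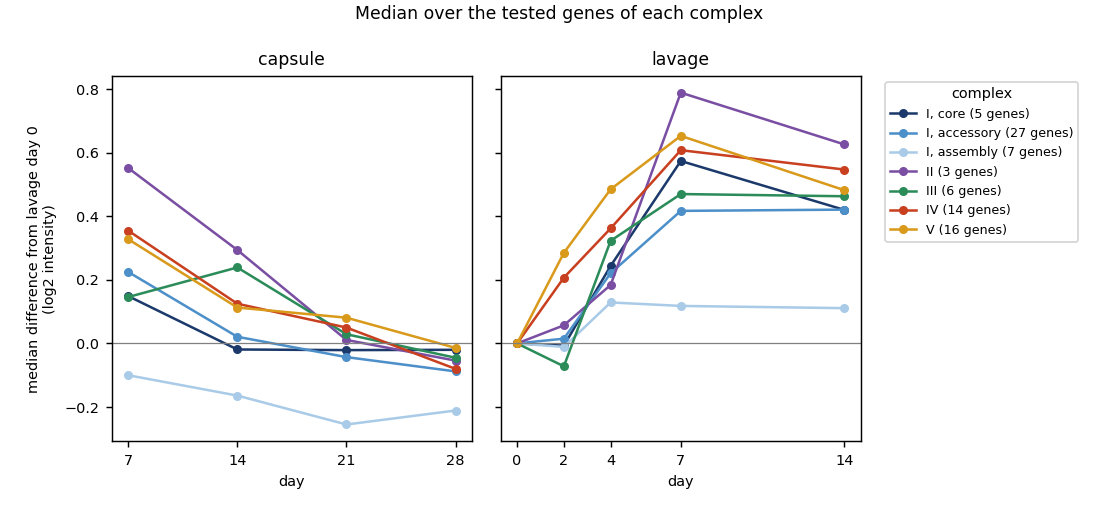
Median difference from lavage day 0 over the tested genes of each complex, in log2 intensity with quantile normalisation, against day, for capsule groups (left) and lavage groups (right), with 1 line per complex. In lavage cells the highest line is complex V at day 4 (0.49) and complex II at day 7 (0.79); at capsule day 28 the medians lie near or below 0, but with median scaling they were 0.08 (assembly factors of complex I) to 1.13 (complex V).

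Complex II, the succinate dehydrogenase of the citric acid cycle, was measured through Sdhb, its iron-sulfur subunit, and Sdhc and Sdhd, which anchor it in the membrane. Sdhb read 12.76 and 12.92 on the lavage day 7 arrays against 12.01 and 11.73 on those of day 0, a difference of 0.97 (SE 0.16, adjusted p = 0.000371, limma). At day 2 it read 12.58 and 12.19 (difference 0.51, adjusted p = 0.0275), a call lost under 5 alternatives, with a difference of 0.32 at the lowest. Both arrays of each later lavage day lay above both of day 0. Sdhc read 11.79 and 11.78 at day 0, 12.43 and 12.71 at day 7 and 12.96 and 12.46 at day 14. Its difference was 0.79 at day 7 (adjusted p = 0.00382) and 0.93 at day 14 (adjusted p = 0.00173). Sdhd was higher by 0.69 at day 7 (adjusted p = 0.0312), and its difference at day 14, 0.63, had an adjusted p of 0.0615. At day 7, then, all 3 genes were higher than at day 0.

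Among the core subunits of complex I, which carry the flavin and the iron-sulfur clusters, Ndufs8 read 12.60 and 12.49 at day 7 against 11.93 and 11.82 at day 0 (difference 0.67, SE 0.13, adjusted p = 0.00123). Ndufv2 read 11.59 and 11.67 against 10.93 and 11.01 (difference 0.66, adjusted p = 0.0011). Ndufs3 and Ndufs7 both rose by 0.57 at day 7 (adjusted p = 0.0126 and 0.0201), and Ndufs7 had been at 11.77 to 12.01 on the arrays of days 2 and 4, inside or below its day 0 range. Ndufv1, the subunit that binds NADH and the flavin, differed by 0.34 at day 7 (adjusted p = 0.0606). Of the accessory subunits, Ndufv3 rose by 0.98 (adjusted p = 0.000162) and Ndufc1 by 1.02 (adjusted p = 0.000249) at day 7. Ndufc1 read 13.63 and 13.29 at that day against 12.39 and 12.49 at day 0, and the groups did not overlap from day 2 on.

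The assembly factor Ndufaf4 followed another course. It read 10.65 and 10.67 at day 0, 11.48 and 11.56 at day 4, 10.89 and 11.14 at day 7 and 10.81 and 10.74 at day 14, so the arrays of day 4 lay above the others. The day 4 difference was 0.86 (adjusted p = 0.000224), but its other probes gave 0.32 (adjusted p = 0.185) and -0.28 (adjusted p = 0.447), so the probes disagree. Ndufaf5, a factor that modifies a core subunit, was higher on each day, by 0.47, 0.43, 0.82 and 0.43 at days 2, 4, 7 and 14.

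In complex III, Uqcrc1, a core protein of the complex, read 13.32 and 13.49 at day 7 against 12.66 and 12.59 at day 0 (difference 0.78, adjusted p = 0.0004). At day 14 it read 13.32 and 13.39 (difference 0.73, adjusted p = 0.000979). Uqcrc2, its partner, was higher at day 7 (13.42 and 13.47, against 12.98 and 12.88 at day 0) by 0.52 (adjusted p = 0.00523), and at day 14 it was back at 12.96 and 13.05, a fall of 0.44 against day 7 (adjusted p = 0.0277). The call of that fall was lost under 7 alternatives, median scaling among them. At day 14, then, Uqcrc1 still differed from day 0 and Uqcrc2 (difference 0.08) did not pass. Uqcr11, a small subunit, was higher by 0.59 at day 4 (adjusted p = 0.0113).

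In complex IV, Cox5b and Cox5a, nuclear subunits of the oxidase, were both highest at day 7. Cox5b read 14.998 and 15.113 at day 7 against 13.88 and 14.07 at day 0, a difference of 1.08 (SE 0.12, adjusted p = 2.1e-05). At day 14 it read 14.53 and 14.55, below both day 7 arrays (difference -0.52, adjusted p = 0.0152) and above both of day 0 (difference 0.57, adjusted p = 0.00524). The call against day 7 was lost under 4 alternatives, median scaling among them. Cox5a read 14.50 and 14.56 at day 7 against 13.65 and 13.72 at day 0 (difference 0.84, adjusted p = 0.000531). Cox8a was higher by 0.82 at day 7 (adjusted p = 0.00267) and by the same amount at day 14.

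In the ATP synthase, Atp5k, which encodes the e subunit of the membrane part, had the largest difference of the 16 at day 7. It read 10.06 and 10.33 at day 7 against 8.48 and 8.54 at day 0, a 3.21-fold difference (adjusted p = 1.01e-05), and was already 1.99-fold higher at day 2 (adjusted p = 0.000963). The genes Atp5g1, Atp5g2 and Atp5g3 encode the same mature c subunit, the protein of the rotating ring, behind different import signals. Atp5g1 read 13.22 and 12.96 at day 4 against 12.20 and 11.99 at day 0 (difference 1.00, adjusted p = 0.00045) and stood at 13.03 and 13.30 at day 7. Atp5g2 had differences of 0.59, 0.81 and 0.97 at days 4, 7 and 14 (adjusted p = 0.0122, 0.00162 and 0.000564), reading 12.14 and 12.25 at day 14 against 11.08 and 11.36 at day 0. Atp5g3 was higher by 0.47 at day 4 and 0.69 at day 7 (adjusted p = 0.0197 and 0.00188), and its difference at day 14 was 0.25 (adjusted p = 0.222). All 3 had thus passed by day 4, and 2 of them still differed at day 14.

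Between days 14 and 7 few members moved. Against 6.28% of all genes higher and 6.82% lower at day 14, limma called 0 members higher (1 at an unadjusted p under 0.05) and 5 lower: Ndufa4, Cox5b, Ndufb6, Uqcrc2 and Ndufa9. The median was -0.05, with -0.10 within slide 1 and -0.05 within slide 2. All 5 calls were lost with median scaling, which called 3 other members lower. The count was 0 with only the 2 groups in the fit and 3 both with and without the replicate block on 12 arrays. Leaving out an array of either group gave 1 to 3 calls: 2 without lavage day 7 replicate 1, 1 without its replicate 2, 1 without lavage day 14 replicate 1 and 3 without its replicate 2, as also without either array of capsule day 21.

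Ndufa4 is listed by its symbol with complex I but known as a subunit of cytochrome oxidase. With quantile normalisation it was the 1 member called lower at lavage day 14 than at day 0. In lavage cells it read 14.63 and 14.47 at day 0, 14.35 and 14.44 at day 2, 14.45 and 14.52 at day 4, 14.32 and 14.18 at day 7 and 13.65 and 13.57 at day 14. In capsule cells it read 13.98 and 13.70 at day 7, 13.29 and 13.45 at day 14, 12.46 and 12.63 at day 21 and 12.56 and 12.43 at day 28. The lavage day 14 arrays lay below all earlier lavage arrays. Those of capsule days 21 and 28 lay below all others, but they alone were on slide 4, so slide and group cannot be told apart there. Ndufa4 fell by 0.94 at lavage day 14 against day 0 (adjusted p = 0.000261, and 0.0508 with median scaling), and by 1.34 at capsule day 28 against day 7 (adjusted p = 2.22e-05).

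Cox6a2 and Cox7a1 encode isoforms of complex IV subunits that are known from heart and skeletal muscle, where they replace the widely expressed Cox6a1 and Cox7a2. In lavage cells Cox6a2 read 5.01 and 5.03 at day 0, where it was not detected, 6.62 and 5.31 at day 2, 6.42 and 6.59 at day 4, 7.58 and 7.54 at day 7 and 7.42 and 6.80 at day 14. In capsule cells it read 9.17 on both arrays of day 7, 11.86 and 11.69 at day 14, 12.66 and 12.55 at day 21 and 12.61 and 12.87 at day 28. All capsule arrays lay above all lavage arrays.

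Because Cox6a2 was not above background at day 0, its lavage differences are bounds: at least 1.8-fold higher at day 4 (adjusted p = 0.00243), at least 3.74-fold at day 7 (adjusted p = 2.89e-05) and at least 2.74-fold at day 14 (adjusted p = 0.00023). A bound sets the group's mean against the lowest level at which probes were detected on the day 0 arrays. At day 2 it was detected on 1 of 2 arrays, and the adjusted p of 0.0349 was lost under 8 alternatives. Capsule cells exceeded lavage cells 3.05-fold at day 7 (difference 1.61, SE 0.30, adjusted p = 0.00158), by 1.59 within slide 1 and 1.63 within slide 2. The difference at day 14 was 25.3-fold (4.66, adjusted p = 1.06e-07), but there capsule and lavage lay on different slides. Under the alternatives it ran from 4.02 to 5.34.

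Cox7a1 rose sooner in the cavity. It read 9.21 and 8.81 at lavage day 2 against 7.46 and 7.21 at day 0, a difference of 3.2-fold (1.68, SE 0.18, adjusted p = 1.14e-05). Its lavage differences at days 4, 7 and 14 were 1.20, 2.01 and 1.83 (adjusted p = 0.000269, 2.15e-06 and 6.48e-06). In capsule cells it read 10.22 and 10.25 at day 7 against 9.54 and 9.15 in lavage cells of that day (difference 0.89, adjusted p = 0.0025, 0.68 within slide 1 and 1.10 within slide 2). It then read 9.72 and 9.36 at capsule day 14, 9.26 and 9.18 at day 21 and 8.95 and 8.82 at day 28, and the fall of 1.35 at day 28 against day 7 passed (adjusted p = 0.000148). So Cox6a2 was higher and Cox7a1 lower at capsule day 28 than at capsule day 7.

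The widely expressed isoforms had smaller differences in lavage cells. Cox6a1 read 14.25 and 14.21 at lavage day 7 against 13.72 and 13.72 at day 0 (difference 0.51, adjusted p = 0.0185), and 13.78 and 13.76 at capsule day 7, a difference of -0.46 from lavage (adjusted p = 0.0365, and 0.395 with median scaling). Cox7a2 read 11.19 and 11.11 at lavage day 14 against 10.33 and 10.69 at day 0 (difference 0.64, adjusted p = 0.0124). At capsule day 14 it read 10.03 and 9.79, a difference of -1.24 from lavage (adjusted p = 5.23e-05). Cox4i1 was higher by 0.37, 0.34 and 0.39 at lavage days 4, 7 and 14. Its isoform Cox4i2, known from hypoxia and lung, was detected on 6 arrays and read 5.11 to 6.26, and Cox6b2, known from testis, was detected on 4 and read 4.96 to 6.60. Neither passed in any comparison, while Cox6b1 was higher by 0.78 at lavage day 7 (adjusted p = 0.00342).

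**Figure D3:**
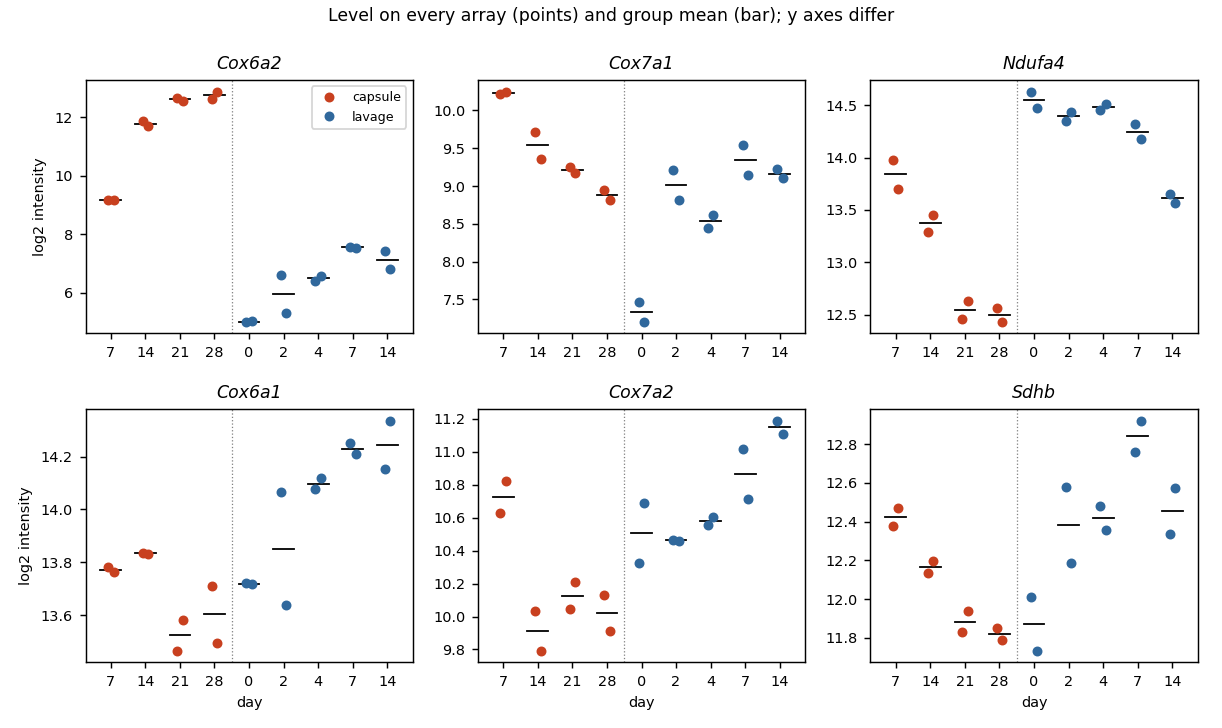
Level on every array (points) and mean of each group (bars) for 6 genes, in log2 intensity against day, with capsule groups left of the dotted line and lavage groups right of it; the y axes differ. Cox6a2 averaged 12.74 at capsule day 28 and 5.02 at lavage day 0, Cox7a1 peaked at capsule day 7 (10.23), and Ndufa4 was lowest at capsule days 21 and 28 (12.54 and 12.50).

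The promoters of Cox6a1, Cox7a2 and Cox7a1 are shown here to set the letters of isoform genes side by side (that of Cox6a2 is not shown), as 250 bases before to 50 after the start site on the gene's own strand, from RefSeq (GRCm38.p6). The window of Cox6a1 is chr5:115348909-115349208 (minus strand), that of Cox7a2 chr9:79759804-79760103 (minus strand) and that of Cox7a1 chr7:30183921-30184220 (plus strand). Capitals mark matches, on either strand, to CGCATGCG (the core bound by NRF1, a factor known to act on many respiratory genes), CCGGAAG (the ETS type bound by GABP), AAGATGGCG (YY1), GGGCGG (the GC box), TATAAA and CAGCTG (an E-box), and no marked run overlaps another.
Cox6a1: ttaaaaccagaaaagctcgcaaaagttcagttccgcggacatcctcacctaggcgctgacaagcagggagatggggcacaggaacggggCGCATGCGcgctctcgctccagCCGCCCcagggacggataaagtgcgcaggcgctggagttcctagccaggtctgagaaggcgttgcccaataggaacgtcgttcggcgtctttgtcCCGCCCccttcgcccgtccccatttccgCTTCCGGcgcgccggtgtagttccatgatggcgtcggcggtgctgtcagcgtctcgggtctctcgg
Cox7a2: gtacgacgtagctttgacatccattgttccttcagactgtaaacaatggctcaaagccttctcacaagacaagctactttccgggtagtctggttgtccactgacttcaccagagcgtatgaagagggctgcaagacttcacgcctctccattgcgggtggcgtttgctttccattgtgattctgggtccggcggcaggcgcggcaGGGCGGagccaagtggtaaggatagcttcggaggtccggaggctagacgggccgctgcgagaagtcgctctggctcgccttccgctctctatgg
Cox7a1: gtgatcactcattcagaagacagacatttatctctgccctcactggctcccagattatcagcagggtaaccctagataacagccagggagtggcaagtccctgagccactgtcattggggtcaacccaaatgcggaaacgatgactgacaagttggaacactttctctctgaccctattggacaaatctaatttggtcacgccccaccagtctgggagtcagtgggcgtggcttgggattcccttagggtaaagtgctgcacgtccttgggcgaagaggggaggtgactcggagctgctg
The window of Cox6a1 holds 1 NRF1 core, 1 ETS motif and 2 GC boxes, that of Cox7a2 holds 1 GC box, and that of Cox7a1 holds none of these letters.

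Of the 78 members, 66 had such a window, and their shares were set against those of all 27025 genes with one. CGCATGCG was in 15.2% of the members' promoters (10 genes) and 2.07% of all, AAGATGGCG in 10.6% (7 genes) and 1.64%, CCGGAAG in 27.3% (18 genes) and 9.93%, and GGGCGG in 50% (33 genes) and 38.2%. The reverse held for TATAAA, with 9.09% (6 genes) and 15.7%, and for CAGCTG, with 7.58% (5 genes) and 18.3%. Uqcrc1, Uqcr11, Ndufaf4 and Ndufaf5, described above, were among those with the NRF1 core, and Sdhb and Sdhd among those with the ETS motif. These are matches of letters in a set of promoters that were not compared at equal base composition.

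At day 7, the 1 day on which capsule and lavage cells shared slides, more subunit genes were called lower than higher in the capsule. The margin depended on the scaling. With quantile normalisation 20 of the 78 were lower and 2 higher, beside 12.5% and 11.6% of all genes, and the 2 higher were Cox6a2 and Cox7a1. The median was -0.27 (-0.02 over all genes), with -0.28 within each of slides 1 and 2, and the difference was below 0 on both slides for 56 of the 78. With that normalisation only, complex III had the most calls for its size, 4 of 6 lower. Complex I had 2 of 5 core subunits, 6 of 27 accessory subunits and 3 of 7 assembly factors lower. The counts were 3 of 14 in complex IV, 2 of 16 in complex V and 0 of 3 in complex II. For complex II limma gave -0.41 for Sdhb (adjusted p = 0.0716), -0.22 for Sdhc and -0.54 for Sdhd (adjusted p = 0.0976).

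Cox5b read 14.31 and 14.40 in the capsule against 14.998 and 15.113 in lavage at day 7, a difference of -0.70 (SE 0.12, adjusted p = 0.000962). Uqcrc1 read 12.81 and 12.70 against 13.32 and 13.49, a difference of -0.64 (adjusted p = 0.00208). Atp5j2, the f subunit of the ATP synthase, fell by 0.53 (adjusted p = 0.0048), Ndufb10 by 0.64 (adjusted p = 0.0101) and Ndufv2 by 0.51 (adjusted p = 0.00799). Ndufs3 and Ndufs8 did not follow, with differences of -0.01 and 0.02 (SE 0.15 and 0.13). Against lavage day 0, where Cox5b read 13.88 and 14.07 and Uqcrc1 12.66 and 12.59, both capsule arrays of either gene lay higher. With median scaling Ndufb10 and Ndufv2 were still called lower in the capsule (-0.66 and -0.51, adjusted p = 0.0331 and 0.0298). Cox5b, Uqcrc1 and Atp5j2 were not, at -0.30, -0.49 and -0.10 (adjusted p = 0.293, 0.0504 and 0.76), and a second probe of Cox5b gave -0.29 (adjusted p = 0.193). Where the probe used was called with quantile normalisation in capsule against lavage at day 7, 2 other probes were called in the same direction. A further 4 had that direction without a call, and 3 had the opposite sign.

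With median scaling the day 7 comparison had 7 members lower and 2 higher, and a median of -0.17, beside -0.09 over all genes. Relative to all genes the members' median was -0.25 under quantiles and -0.09 under median scaling. Of the 7, 6 were among the 20: Ndufaf4, Ndufaf5, Ndufaf8, Ndufb10, Ndufb11 and Ndufv2, all of complex I. None of the complex III calls was among them. Beside these falls, 7 of the 8 cell cycle genes measured were lower in the capsule with quantile normalisation. In that comparison 12.5% of all genes were lower and 11.6% higher, the shares to set beside this and the next marker counts. The cell cycle genes had sums of 6883 to 8508 in capsule and 16200 to 16470 in lavage cells at day 7, and the 10 neutrophil markers summed to 8097 to 10750 and 6182 to 6639. Of the 5 mast cell markers measured (Cpa3, Cma1, Mcpt4, Kit and Tpsb2) 4 were lower and 0 higher. They summed to 201 to 219.6 in capsule cells, where Cpa3, Cma1, Mcpt4 and Tpsb2 were not detected, and 1046 to 1319 in lavage cells. The eosinophil markers listed with them, Siglecf, Epx and Prg2, were not kept. Of the 6 B cell markers 4 were lower and 1, Blnk, higher, with a median of -2.18. They summed to 7589 to 7775 in capsule cells, where Cd79a, Ms4a1 and Pou2af1 were not detected, and 4326 to 5416 in lavage cells. The capsule sum was mostly Blnk, which averaged 12.83 in capsule and 10.98 in lavage cells. The part of these markers was not tested. The count of calls was 13 with the replicate block on 12 arrays (12 without it), 6 with the 2 groups alone, 11 without either replicate 1 or without capsule day 7 replicate 2, and 9 without lavage day 7 replicate 2.

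At day 14 and later, the capsule values depend on the scaling. With the quantile normalisation used above, 33 members were lower and 1 higher in capsule than in lavage cells at day 14 (18.4% and 16.8% of all genes), with a median of -0.27. With median scaling 13 were lower and 35 higher, with a median of 0.43. That scaling moved the median of all genes too, to 0.39 against -0.02, so relative to all genes the members' median was -0.26 under quantiles and 0.04 under median scaling. The split of all calls was 82.7% higher with median scaling and 47.7% with quantiles. Cox5a and Cox6a1 were called lower with quantiles and higher with median scaling, so no direction is given here for the members as a group.

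Under both scalings 13 members were called lower: Atp5a1, Atp5e, Atp5k, Atp5md, Cox7a2, Cox7b, Ndufa6, Ndufb2, Ndufb4, Ndufb5, Ndufb9, Sdhd and Uqcrb were lower in capsule than in lavage cells at day 14, and Cox6a2 was higher. Of these 13, 10 were among the 26 members of lowest mean level (5.56 to 10.91) and 0 among the 26 of highest (12.81 to 14.96). Atp5md, a small accessory subunit of the ATP synthase, read 7.30 and 6.47 against 9.41 and 9.27 in lavage cells, a difference of -2.45 (SE 0.23, adjusted p = 2.18e-06). Ndufb4 read 8.13 and 7.44 against 9.76 and 9.75 (difference -1.96, adjusted p = 1.71e-05), and Cox7b read 8.13 and 7.59 against 9.71 and 9.42 (difference -1.71, adjusted p = 6.33e-05). In these genes both capsule arrays lay well below both lavage arrays.

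Sdhd, the anchor of complex II, read 10.68 and 9.98 at capsule day 14 against 12.22 and 11.90 in lavage cells (difference -1.73, adjusted p = 4.18e-05), while Sdhb and Sdhc differed by -0.29 and -0.42 (adjusted p = 0.17 and 0.0808), or by 0.44 and 0.31 with median scaling (adjusted p = 0.075 and 0.289). Uqcrb, a small subunit of complex III, differed by -1.16 (adjusted p = 8.62e-05). Atp5a1, the alpha subunit of the catalytic head, differed by -2.01 (adjusted p = 5.1e-06), but its second probe gave 0.02 (adjusted p = 0.97), so no fall of the gene can be read from them. Atp5b, the beta subunit of the same head, differed by 0.03 (1.04 with median scaling).

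**Figure D4:**
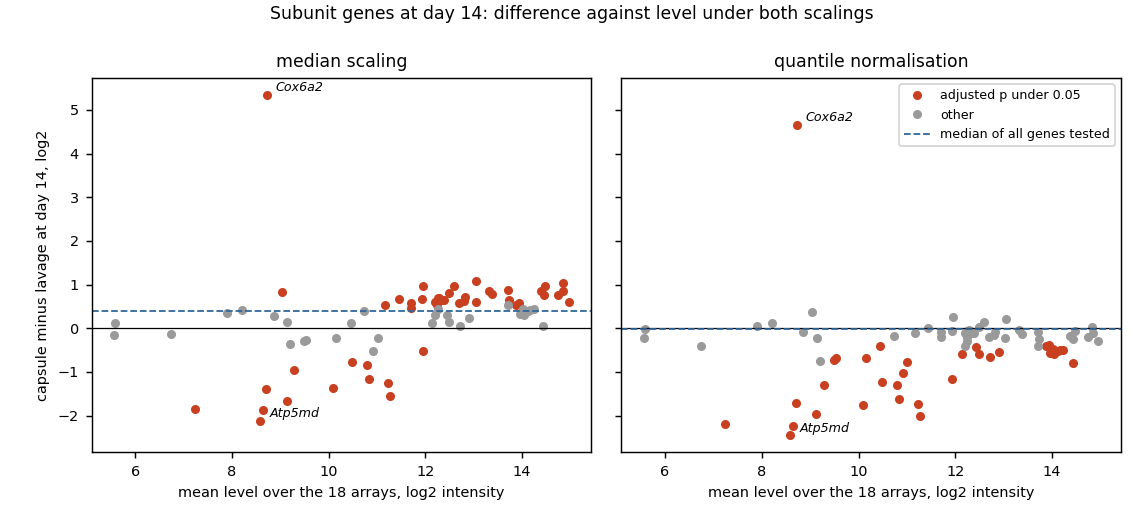
Difference of capsule minus lavage at day 14 (log2) for each of the 78 subunit genes against its mean level over the 18 arrays, with median scaling (left) and quantile normalisation (right). Red points passed at an adjusted p under 0.05 and the dashed line is the median of all genes tested; members of high level lie above 0 on the left (median 0.61 over the 26 highest) and below 0 on the right (-0.25), while Cox6a2 and Atp5md keep their place.

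Capsule days 28 and 7 also lay on different slides, and their comparison depended on the scaling in the same way. With quantiles 26 members were lower and 1 higher (15% and 16.2% of all genes) with a median of -0.23, and with median scaling 12 were lower and 25 higher (median 0.31, beside 0.29 over all genes). All 12 were among the 26: Atp5a1, Atp5e, Atp5k, Atp5md, Cox7a1, Cox7b, Ndufa4, Ndufa6, Ndufb4, Ndufb5, Ndufb9 and Sdhd. For Atp5a1 (-1.49) a second probe gave 0.00 (adjusted p = 0.994), so no fall of that gene can be read. Cox6a2 was higher under both, 11.9-fold with quantiles (adjusted p = 5.3e-06). Atp5md fell by 1.81 (adjusted p = 8.62e-05) and Sdhd by 1.22 (adjusted p = 0.00118). Sdhb, at 11.85 and 11.79 on day 28 and 12.38 and 12.47 on day 7, fell by 0.61 (adjusted p = 0.0103) with quantiles and differed by -0.07 with median scaling (adjusted p = 0.807).

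Between capsule days 28 and 21, both on slide 4, limma called 0 members in either direction, and 1 had an unadjusted p under 0.05. Of all genes 0.250% were higher and 0.685% lower. The members' differences ran from -0.35 to 0.98 with a median of -0.03 and a median SE of 0.16. The widest, Ndufb2, had an adjusted p of 0.3.

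The difference between capsule and lavage itself differed between days 14 and 7 for 17 members, 3 upwards (Cox6a2, Uqcrc2 and Ndufa9) and 14 downwards, beside 4.66% and 6.81% of all genes. For Uqcrc2 the capsule minus lavage difference was 0.21 at day 14 and -0.47 at day 7 (interaction 0.69, SE 0.17, adjusted p = 0.0189). With median scaling 27 interactions were upwards and 8 downwards (90.1% of all calls upwards, 40.6% with quantiles). The 3 upward calls and 8 of the 14 downward ones were made under both, those 8 being Atp5a1, Atp5e, Atp5md, Cox7b, Ndufa6, Ndufb2, Ndufb4 and Ndufb9. The second probe of Atp5a1 had the opposite sign (0.61, adjusted p = 0.313). Without lavage day 14 replicate 1 there were 10 calls, and without lavage day 7 replicate 2 there were 11, with 1 upward in either.

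**Figure D5:**
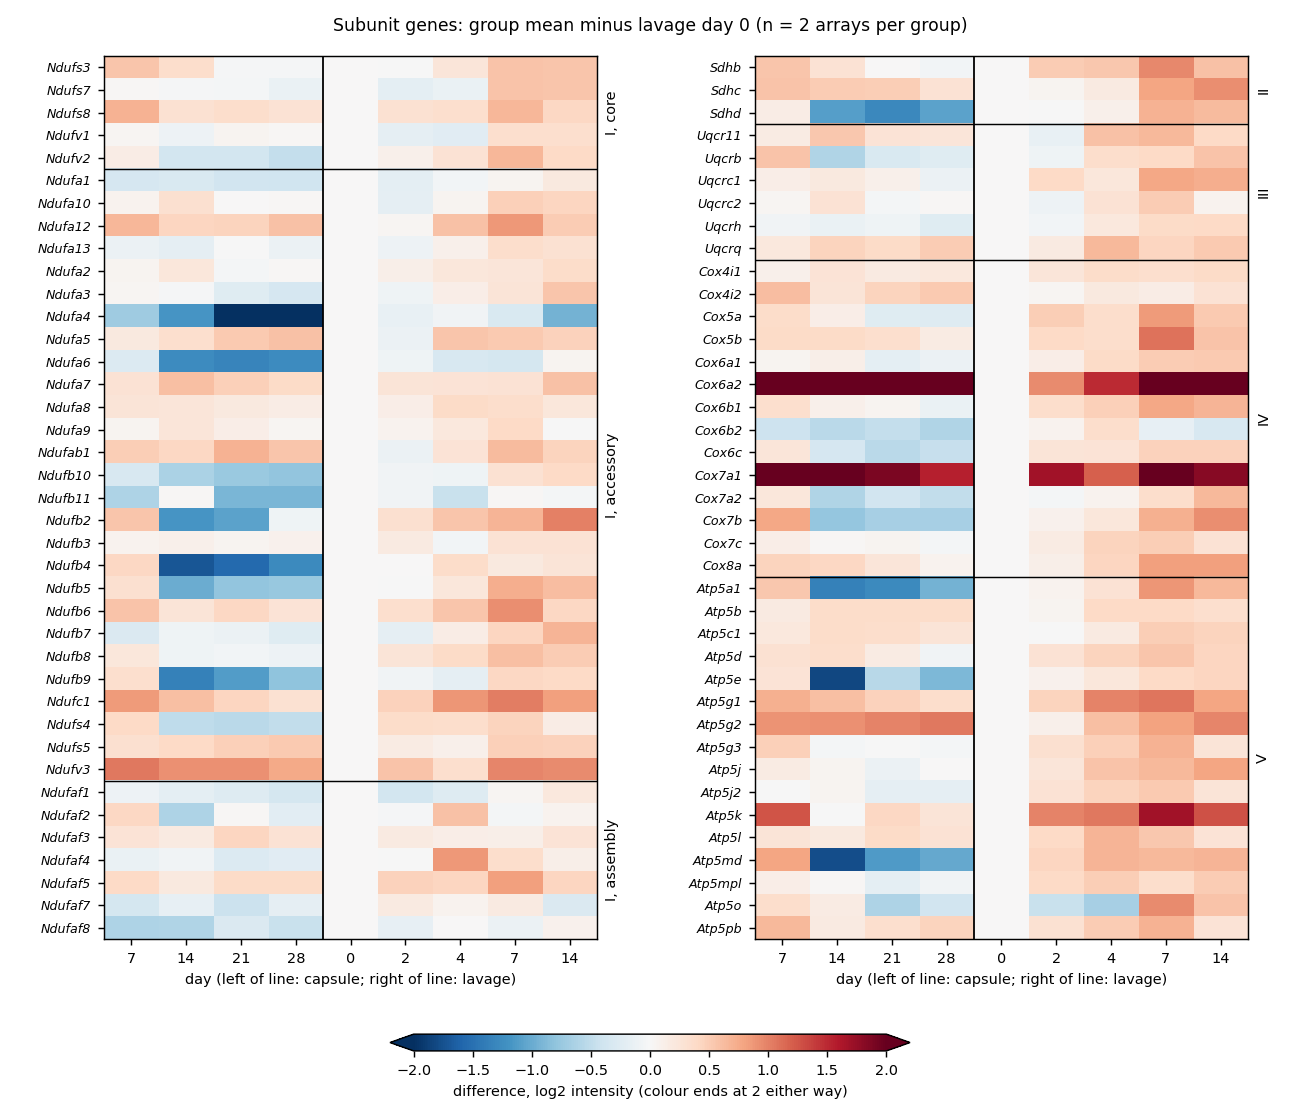
Group mean minus the lavage day 0 mean (log2 intensity with quantile normalisation, 2 arrays per group) for the 78 subunit genes by complex, with capsule days left of the vertical line and lavage days right of it; red is higher and blue lower. Lavage days 7 and 14 are red in most rows, Cox6a2 and Cox7a1 are red in each later column, and a minority of rows, such as Atp5md, Ndufb4 and Ndufa4, is blue at capsule days 14 to 28.

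Over the 9 groups, with quantile normalisation, 33 members were highest at lavage day 7 and 21 at lavage day 14, and 23 were lowest at lavage day 0, 14 at capsule day 14, 12 at capsule day 21 and 15 at capsule day 28. With median scaling 31 were highest at capsule day 14, 16 at lavage day 7 and 1 at lavage day 14, and 53 were lowest at lavage day 0, so these places depend on the scaling. With quantiles, the correlation of a member's 9 group means with the mean of the 73 members detected on every array had a median of 0.73, was above 0.7 for 40 members and below 0 for 4: Cox6a2 (-0.56), Ndufaf3 (-0.20), Cox4i2 (-0.17) and Ndufa7 (-0.03). The 5 other genes most like that mean were Cuedc2 (r = 0.95), Sec61g (0.95), Gmppb (0.94), Jpt2 (0.94) and Suclg1 (0.94, a subunit of succinyl-CoA ligase). With median scaling the median was 0.80 and 18 members were below 0, and these 5 genes had 0.84, 0.89, 0.00, 0.02 and 0.53. These correlations are descriptions over 9 group means that share arrays and normalisation.

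Of the other mitochondrial genes, read from lists made for this purpose, those of the citric acid cycle and pyruvate dehydrogenase moved with the subunits at lavage day 7 against day 0: 9 of 14 were higher and 1 lower (median 0.62), among them Ogdh (0.80, adjusted p = 0.00318) and Suclg1 (0.91, adjusted p = 0.00109). Mitochondrial ribosomal protein genes had 21 of 71 higher and 0 lower (median 0.26), import and carrier genes 6 of 12 and 0 (0.48), and assembly factors and electron carriers outside the Nduf names 7 of 25 and 0 (0.28). Of all genes, 15.1% were higher and 13.5% lower in that comparison. At capsule day 7 against lavage day 7, these 4 lists had 7 of 14, 7 of 71, 0 of 12 and 2 of 25 genes lower and 0 higher, where 12.5% of all genes were lower. The list counts were read with quantile normalisation only. Ppargc1b, a coactivator of respiratory genes, fell by 0.72 at lavage day 2 (adjusted p = 0.00565), was higher by 0.89 at day 4, 2.08 at day 7 and 2.23 at day 14, and had a difference of -1.16 in capsule against lavage cells at day 7 (adjusted p = 0.000188). Of the 10 regulators measured, 3 were higher and 0 lower at lavage day 7, Gabpa and Gabpb1, which encode GABP, being the other 2 (0.65 and 0.49). In capsule against lavage cells at day 7, 2 of the 10 were higher and 1 lower, beside 11.6% and 12.5% of all genes.

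With quantile normalisation, the only scaling used for the lists, the list of glycolysis genes had no member lower in the capsule at day 7. At lavage day 7 against day 0, 7 of 10 were higher (median 0.84), beside 15.1% of all genes. At day 7 in capsule against lavage cells 5 of 10 were higher and 0 lower (median 0.37), beside 11.6% and 12.5% of all genes. Slc2a1, the glucose transporter GLUT1, was higher by 2.48 there (adjusted p = 1.94e-06) and Hk2 by 1.33 (adjusted p = 1.74e-05). Of the 4 genes measured from the list for the hypoxia response in mitochondria, 1 was higher and 0 lower in capsule than in lavage cells at day 7. The difference between the lists was not tested, and of genes encoded in mitochondrial DNA 0 were annotated.

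Other markers moved beside the members, and their part in these results was not tested. The 8 cell cycle genes measured summed to 5153 to 5219 at lavage day 0, 12630 to 15750 at day 4, 16200 to 16470 at day 7 and 4634 to 5363 at day 14. At day 14 against day 0, 1 of these 8 was called higher and 1 lower, beside 10.3% and 9.50% of all genes. Neutrophil markers (10 measured) summed to 10050 to 10160 at lavage day 0, where Cxcr2, Mmp8, Ltf, Retnlg and Elane were not detected, 57590 to 82750 at day 2, 55830 to 70490 at day 4, 6182 to 6639 at day 7 and 3361 to 4173 at day 14. Though the sum was lower at day 7 than at day 0, 6 of the 10 were called higher and 2 lower (median 1.21). Of all genes, 15.1% were higher and 13.5% lower. The 6 B cell markers summed to 3738 to 5944 at lavage days 2 to 14 and 9888 to 9898 at day 0. Mast cell markers (5) summed to 1046 to 1319 at lavage day 7 and 1735 to 1903 at day 0, and T and NK cell markers (6) to 439.1 to 546.5 and 1162 to 1202. Of the T and NK cell markers 1 was called lower and 0 higher at day 7, beside 13.5% and 15.1% of all genes. The day 0 sum was mostly Cd2, which averaged 9.64 at day 0 and 7.73 at day 7. Of the fibroblast markers 3 of 6 were measured, and they summed to 313.1 to 1883 over the capsule arrays and 114 to 220 over the lavage arrays, mostly Dcn (10.65 at capsule day 14 and 5.38 at lavage day 14). The 2 mesothelial markers measured summed to 189.4 to 366.9 in capsule and 142.7 to 224.1 in lavage groups.

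Beside the muscle isoforms Cox6a2 and Cox7a1, striated muscle markers were low: of Acta1, Myh4, Ckm, Tnnt3 and Actn2 only Myh4 and Tnnt3 were detected on both arrays of any group, with means of 5.47 and 5.35 at capsule day 7, 5.89 and 5.39 at capsule day 28 and 5.27 and 5.91 at lavage day 0. Tnnt3 averaged 6.89 at lavage day 2, a difference of 0.98 from day 0 (adjusted p = 0.0144), on the day Cox7a1 was 3.2-fold higher, while Myh4 differed by 0.09 (adjusted p = 0.806). Its part in the Cox7a1 difference was not tested. Of the adipocyte markers listed with them, Adipoq, Plin1, Cidea and Cidec were not kept, and Ucp1, the uncoupling protein of brown fat mitochondria, averaged 8.11 at lavage day 0, 5.85 at day 2, 12.40 at day 7 and 14.08 at day 14. In capsule against lavage cells Ucp1 was lower at day 7, with a difference of -2.38 (adjusted p = 0.000351), where Cox6a2 was higher. Its difference at day 14 was -1.46 with quantiles (adjusted p = 0.00754) and -0.73 with median scaling (adjusted p = 0.143).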

How the data were processed

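Amplified RNA of sorted, pooled cells was read on Illumina bead arrays for the mouse. The authors deposited non-normalised probe intensities from BeadStudio and a detection p-value per probe, per the file headers. They also deposited log2 values of their own, which were used here only as an alternative; per the submitters' processing notes R 2.15.3 was used, and the steps are otherwise not given in the sources used here. From the deposited intensities, limma 3.58.1 in R 4.3.3 applied normexp background correction, with negative controls inferred from the detection p-values and an offset of 16, and then quantile normalisation (neqc). A probe was kept if its detection p was under 0.05 on both arrays of at least 1 group (20985 of 46632 probes), and a gene took its kept probe of highest mean (10806 genes). Probe names came from the platform annotation (29976 probes with 1 symbol, 10 with several, 16646 with none), updated through gene IDs (99.8% matched, 0 symbols changed).

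One limma model with a mean per group (9 residual degrees of freedom, prior 4.58) gave all 10 comparisons, the interaction among them, with Benjamini-Hochberg adjustment within each. The labels put replicate numbers 1 and 2 of the lavage and capsule day 7 groups on slides 1 and 2; deviations from group means correlated at -0.11 to 0.13 over 15 pairs of groups. The fit was tested on simulated data. The members, the gene lists and the tests were chosen with earlier results of these data known. Genes named are the members with fixed isoform or core roles and, per comparison, up to 8 rises and 8 falls without overlap between arrays and the smallest p of each complex; Atp5b, Ndufa7, Ndufaf3 and Ndufb5 were added after their values were seen. Median scaling of the group means and of Ucp1, and a fit to genes detected on every array, were chosen after seeing the data. Alternatives were median scaling, other background corrections and filters, the mean of a gene's probes, the authors' values, the slide or replicate as a block, the compared groups alone, and leaving out each array. No array or column was left out. The number of arrays limits the precision.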

Additional observations from a re-analysis of the deposited data

Results flagged for a closer look

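For 17 subunit genes the difference between capsule and lavage cells itself differed between days 14 and 7, by limma's test of the interaction with Benjamini-Hochberg adjustment over all genes. Capsule day 14 lay on a slide of its own, so slide and group cannot be told apart in any of them. Cox6a2 had an interaction of 3.053 (SE 0.43, adjusted p = 0.000942), with capsule minus lavage differences of 4.66 at day 14 and 1.61 at day 7. Uqcrc2 had 0.687 (adjusted p = 0.0189) and Ndufa9 0.599 (adjusted p = 0.036), both lower in the capsule at day 7 (-0.47 and -0.35) and above lavage at day 14 by 0.21 and 0.25. With median scaling these 3 were upward too, where 90.1% of all interaction calls were upward. The call of Uqcrc2 was lost under 4 alternatives and that of Ndufa9 under 8, and Cox6a2 was the 1 upward call left with the compared groups alone, without lavage day 14 replicate 1, or when replicate 2 of lavage day 7 was left out.

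The other 14 were downward. Atp5md had -2.596, Ndufb4 -2.186, Atp5e -2.128, Ndufb2 -2.053, Cox7b -1.779, Ndufb9 -1.677, Atp5a1 -1.667 and Ndufa6 -1.391, and these 8 were downward under median scaling as well. A second probe of Atp5a1 gave 0.61 (adjusted p = 0.313), the opposite sign. The 6 remaining calls, Uqcrb with -1.324, Ndufb5 with -1.193, Sdhd with -1.192, Ndufaf2 with -1.142, Cox7a2 with -1.099 and Atp5k with -0.868, were not called downward with median scaling. At day 7 the capsule minus lavage difference of these 14 genes ran from -0.54 (Sdhd) to 0.45 (Ndufaf2), and at day 14 from -2.45 (Atp5md) to -0.69 (Ndufaf2).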

How the results depend on the processing

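The members called higher in lavage cells against day 0 stayed within 1.5 times the given count at day 7 (47) under each alternative other than leaving out an array, with 40 to 51 calls. Median scaling gave 3 calls for lavage day 14 against day 7, 0 of them among the 5 given, and 9 for capsule against lavage at day 7. It gave 48 (35 higher, 13 lower) for capsule against lavage at day 14, 37 (25 higher, 12 lower) for capsule day 28 against day 7 and 35 (27 upward, 8 downward) for the interaction. These last 3 comparisons turned the direction of the majority. With the compared groups alone the calls were 3 at lavage day 2, 16 at day 14 against day 0, 0 at day 14 against day 7, 6 and 20 for capsule against lavage at days 7 and 14, and 11 for the interaction. With the replicate block on 12 arrays they were 5 at lavage day 2, 3 for day 14 against day 7 and 13 for capsule against lavage at day 7, and without the block on the same arrays 6, 3 and 12; the block changed no other count of calls by over 1.5 times. Leaving out 1 array gave 3 to 13 calls at lavage day 2, 8 to 31 at day 4, 26 to 48 at day 7, 15 to 39 at day 14, 1 to 6 for day 14 against day 7, 9 to 22 for capsule against lavage at day 7 and 10 to 17 for the interaction. The cause of these changes was not tested, beyond the fewer arrays in such fits. The 94 results for named genes gave 2827 values under the alternatives, of which 2629 stayed on their side of the threshold, 188 no longer passed and 10 newly passed; 49 of the 86 called results kept their call throughout. Among these 94, no called result changed sign, and 2 uncalled ones did: Sdhb in capsule against lavage at day 7 (0.08 with the mean of a gene's probes, -0.41 as given) and Atp5g3 at lavage day 14 against day 7 (0.075 with median scaling, -0.44 as given). Cox5a and Cox6a1 in capsule against lavage at day 14, not among the 94, were called lower with quantiles and higher with median scaling. With slide as a random block the estimated correlation was -0.06. Signal over background limits Cox6a2 at lavage day 0, Cox4i2 and Cox6b2.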
